A study of Mus musculus with 9 samples.

Results

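The 9 genes described here encode ligands, receptors, Smad proteins and a target gene of transforming growth factor beta (TGF-β) signaling: Tgfb1, Tgfb2, Tgfb3, Tgfbr1, Tgfbr2, Smad2, Smad3, Smad7 and Ctgf. They were taken by symbol from 23282 listed genes, and all 9 symbols were found. Of these, 8 reached the minimum level for testing, and Tgfb1 did not. Kidney RNA came from C57BL/6 mice, with 4 wild-type libraries and 5 libraries from Bmal1 -/- mice, which lack the clock transcription factor Bmal1 (gene symbol Arntl). The series was deposited under a title about the clock and chronic kidney disease. No treatment, age, sex, hour of sampling or kind of Bmal1 allele is named in the labels, and no disease model is stated for either genotype. Nothing in the labels ties a library to its own animal, and the spread that each p-value rests on may therefore be technical.

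TGF-β ligands are secreted in a latent complex and, once released, bind the type 2 receptor Tgfbr2, which recruits and phosphorylates the type 1 receptor Tgfbr1. That receptor phosphorylates Smad2 and Smad3, which enter the nucleus with Smad4 and switch on genes such as Ctgf (now named Ccn2, connective tissue growth factor) and the inhibitory Smad7, which feeds back on the receptor. In kidney the pathway is best known as a driver of scarring, through matrix production by fibroblasts and injury responses of tubule cells. The related bone morphogenetic proteins (BMPs) signal through other receptors and Smad1, Smad5 and Smad9, with the Id genes as common targets.

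RefSeq promoter windows of GRCm38.p6 were at hand for 5 of the 9 members (Tgfb1, Tgfb2, Tgfbr1 with 2 start sites, Tgfbr2 and Smad3), and not for Tgfb3, Smad2, Smad7 and Ctgf. The 250 bases before each of the 6 starts were searched on both strands for the E-box CACGTG, the site through which Bmal1 and its partner Clock act, the CAGA box CAGACA, to which Smad3 and Smad4 bind, and the TEAD site GGAATG. Windows of Tgfb2 and Tgfbr2 are shown because each had the larger difference between genotypes among the ligands or receptors with an entry. Capitals mark an E-box or a CAGA box, and each window runs 5′ to 3′ up to the base before the start.
Tgfb2 (chr1:186705990-186706239, - strand): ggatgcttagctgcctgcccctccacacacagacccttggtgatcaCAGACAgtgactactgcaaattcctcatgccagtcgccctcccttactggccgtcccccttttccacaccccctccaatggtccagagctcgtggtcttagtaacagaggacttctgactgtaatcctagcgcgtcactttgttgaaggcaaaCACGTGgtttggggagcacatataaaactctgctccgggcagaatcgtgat
Tgfbr2 (chr9:116175364-116175613, - strand): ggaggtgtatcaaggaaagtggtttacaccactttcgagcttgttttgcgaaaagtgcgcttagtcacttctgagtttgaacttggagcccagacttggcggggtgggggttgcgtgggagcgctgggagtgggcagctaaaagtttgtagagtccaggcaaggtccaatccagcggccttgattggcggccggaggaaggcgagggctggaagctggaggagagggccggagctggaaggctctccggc

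The Tgfb2 window held an E-box 51 to 46 bases before the start and a CAGA box 204 to 199 bases before it. An E-box was present in 6.02% of the 32851 windows in the RefSeq table, and Tgfb2 was the only member with one among the 6 member windows searched. The CAGA box was present in 17.1% of all windows and also in the window of the second Tgfbr1 start, at 203 to 198 bases. The TEAD site was in 12.6% of all windows and in none of the 6 member windows. No motif of the 3 was found in the printed Tgfbr2 window. None of the matches overlapped, and a match is a run of letters, not evidence of binding.

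Deposited values are log2(x + 1), where x is a read count adjusted by the authors towards a common library size. Libraries were made with the Lexogen QuantSeq kit, which reads about 1 tag near the 3′ end of each transcript, so that levels of different genes can be set side by side without a length correction. Adjusted totals were 12407284 to 13486444 in wild type and 11765219 to 12936926 in knockout, and the raw depth is unknown. The ribosomal RNA precursor Rn45s took 5.07% to 11.3% of adjusted reads in wild type and 6.83% to 14.4% in knockout, and globin 0.548% to 1.36% and 0.796% to 3.16%. Arntl was lower in all 5 knockouts (5.65 to 5.99) than in all wild types (6.26 to 7.06), with a log2 difference of -0.84 (limma adjusted p = 0.0112). Its adjusted p was 0.0553 without wild type 3 and 0.0526 with Rn45s as a covariate. A 3′ tag outside the deleted part would still be read, so the Arntl level alone does not check the labels. All 8 clock genes examined, Arntl included, passed (4 higher, 4 lower). Among them the clock repressor genes Nr1d2 (-3.46, limma adjusted p = 3.50e-10) and Cry1 (3.13, adjusted p = 3.32e-09), chosen after their values were seen, separated every knockout from every wild type. In bulk tissue, fewer cells of a type and less RNA per cell cannot be told apart.

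None of the 8 tested members differed between genotypes at an adjusted p under 0.05 (limma, adjusted over 13481 tested genes), against 14.4% of all tested genes (6.16% higher and 8.2% lower in knockout). At an unadjusted p under 0.05, Tgfb3 (higher in knockout) and Tgfbr2 (lower) passed, 2 of 8 against 27.5% of all tested genes. No member had all knockouts above or all below the wild types, against 14.3% of tested genes. The 2 ligands had higher means in knockout and the other 6 members lower means, with a median difference of -0.06 over the 8 members and 0.0002 over all tested genes. The members' share at the unadjusted p was near that of all genes, and is no result about the members.

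**Figure D1:**
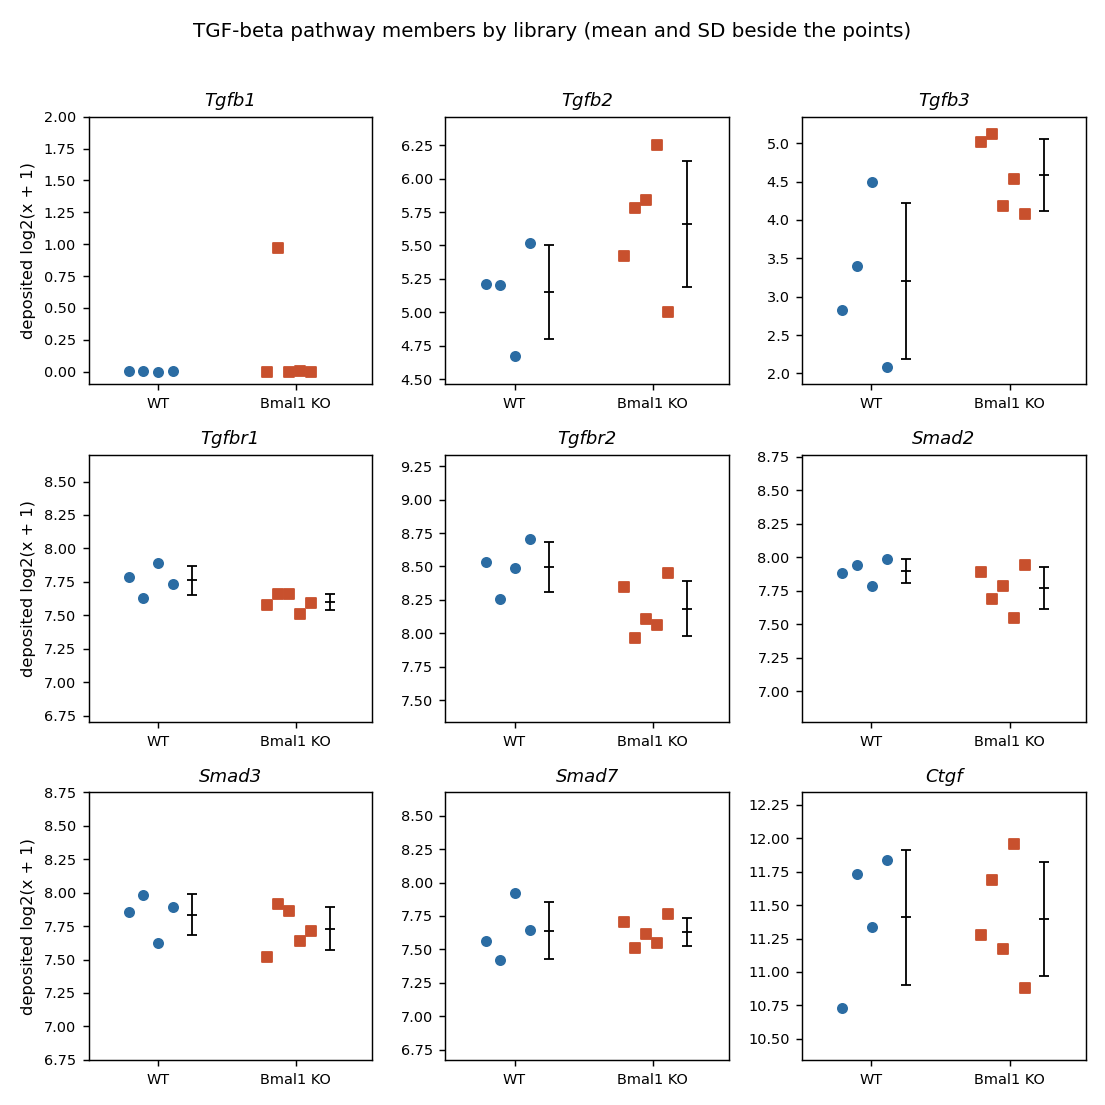
Deposited log2(x + 1) of the 9 members in each library, wild type (WT, circles, 4 libraries) and Bmal1 knockout (KO, squares, 5 libraries), with mean and SD beside the points except for Tgfb1; each panel has its own axis range. Genotypes overlap in all 9 panels, Tgfb3 has 1 wild type (4.50) among the knockouts, and Tgfb1 is near 0 except in knockout 2 (0.97).

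The members covered a wide range of levels, with the target gene far above the ligands. Mean log2(x + 1) over the 9 libraries was 11.40 for Ctgf, 8.32 for Tgfbr2, 7.83 for Smad2, 7.78 for Smad3, 7.67 for Tgfbr1, 7.63 for Smad7, 5.43 for Tgfb2 and 3.97 for Tgfb3, with Tgfb1 near 0. Ctgf lay above Tgfbr2 in 9 of 9 libraries, by 3.08 ± 0.56 (SD, n = 9) on the log2 scale, and Tgfbr2 above Smad2 in 9 of 9, by 0.50 ± 0.17 (SD, n = 9). Smad2, Smad3, Tgfbr1 and Smad7 formed a level group whose neighbours did not separate beyond their spread. Smad2 was above Smad3 in 5 of 9 libraries, Smad3 above Tgfbr1 in 7 of 9, and Tgfbr1 above Smad7 in 5 of 9. Smad7 lay above Tgfb2, Tgfb2 above Tgfb3 and Tgfb3 above Tgfb1 in 9 of 9 libraries each.

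Tgfb1 (chromosome 7, 25687002 to 25705077, + strand, GRCm38, GENCODE), the ligand most often studied in kidney scarring, was listed at or near 0 in 8 of the 9 libraries. On the log2(x + 1) scale the wild types read 0.006, 0.002, 0.000 and 0.002. The knockouts read 0.000, 0.967, 0.000, 0.004 and 0.000. Only knockout 2 stood above 0.01, at an x of 0.955. How many raw reads that stands for is unknown. No fold is given, since both genotypes lie at the floor. Widely expressed genes were not at 0 in these tables, Actb being at 14.08 to 14.52, Polr2a at 8.71 to 9.56 and Tbp at 5.93 to 6.54. The neighbouring genes B9d2 (7.59 to 8.10) and Ccdc97 (8.01 to 8.49), chosen after their values were seen, were counted at ordinary levels. Exons of Tgfb1 overlap no other GENCODE gene. Whether its 3′ tags fall outside the intervals the authors counted was not tested, so the ligand is reported as listed at 0 and not as absent from the kidney.

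Tgfb2 (chromosome 1, 186622792 to 186705989, - strand) encodes the ligand with the highest listed level of the 3. Wild-type libraries 1 to 4 were at 5.21, 5.20, 4.67 and 5.52, and knockouts 1 to 5 at 5.42, 5.78, 5.84, 6.25 and 5.00. Knockouts 2, 3 and 4 lay above every wild type, and knockout 5 lay below 3 of the 4 wild types. The knockout mean was higher by 0.51 (SE 0.29, limma adjusted p = 0.283), a 1.42-fold difference with a 95% interval of 0.926 to 2.18. In adjusted reads the genotypes had 35.3 ± 8.40 (SD, n = 4) and 51.7 ± 16.7 (SD, n = 5). Among the members with a searched window, only Tgfb2 held an E-box. Its difference did not pass the test, with an interval reaching 2.18-fold, and any role of the E-box was not tested.

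Tgfb3 (chromosome 12, 86056745 to 86079041, - strand) had the largest difference of the members. Wild types 1 to 4 read 2.83, 3.40, 4.50 and 2.08, and knockouts 1 to 5 read 5.01, 5.12, 4.18, 4.54 and 4.08. All 5 knockouts were above the wild-type mean, but wild type 3 lay above knockouts 3 and 5. The knockout mean was higher by 1.38 (SE 0.49, 95% interval 0.35 to 2.42; limma adjusted p = 0.0703), 2.61-fold on the log2(x + 1) scale. Exact permutation of the 9 libraries gave p = 0.0317 for Tgfb3 (two-sided, all splits into 4 and 5, smallest possible 0.00794, unadjusted among the 8 members computed).

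The Tgfb3 difference rests on few reads. Adjusted reads were 6.12, 9.56, 21.6 and 3.24 for the wild types and 31.3, 33.7, 17.1, 22.2 and 16 for the knockouts. It met the minimum of x = 10 in 5 knockouts and 1 wild type, so it was tested mainly through the genotype in which it is high. Without wild type 3 the difference was 1.81 (limma adjusted p = 0.0245), and without wild type 4 it was 1.01 (adjusted p = 0.205). Leaving out wild type 3 was the only one of 19 alternative settings in which Tgfb3 passed, with adjusted p from 0.0245 to 0.205 over the 19.

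The genes whose profiles over the 9 libraries lay nearest to that of Tgfb3, by root-mean-square difference of mean-centred log2 values, were Rbm46 (0.438), Fut10 (0.460) and Ccnjl (0.465). Their log2 differences are a description, with no test, since a gene near Tgfb3 in profile shares its difference by choice. They were 1.34 for Rbm46, an RNA-binding protein gene, 1.25 for the fucosyltransferase gene Fut10 and 1.56 for Ccnjl, a cyclin J-like gene. Ccnjl was at 3.53 to 5.01 in wild type and 5.30 to 6.11 in knockout. Exons of Tgfb2 and Tgfb3 overlap noncoding transcripts on the other strand, as do those of Ctgf and Ccnjl, and the strand setting of the counting is not given in the sources used here. Whether reads of those transcripts were counted with these genes can therefore not be told.

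Tgfb2 exceeded Tgfb3 in every library. The difference of their log2 values was 1.95 ± 1.36 (SD, n = 4) among wild types and 1.07 ± 0.59 (SD, n = 5) among knockouts, from 0.17 in wild type 3 to 3.44 in wild type 4. The spread within wild type was larger than the gap between the genotypes. The change in the ratio was not tested.

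Both receptors had lower means in knockout, and neither passed. Tgfbr2 (chromosome 9, 116084293 to 116175360, - strand), the receptor that binds ligand first, read 8.54, 8.26, 8.49 and 8.71 in the wild types against 8.34, 7.97, 8.11, 8.06 and 8.45 in the knockouts. Knockouts 2, 3 and 4 lay below every wild type and knockouts 1 and 5 within the wild-type range. The difference was -0.31 (SE 0.14, 95% interval -0.60 to -0.02; limma adjusted p = 0.155), or 0.806-fold, and exact permutation for Tgfbr2 gave p = 0.0556. In adjusted reads it was 362 ± 45.9 (SD, n = 4) against 292 ± 42.0 (SD, n = 5). The knockouts low in Tgfbr2 were also those high in Tgfb2, a description over 9 libraries.

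Tgfbr1 (chromosome 4, 47353222 to 47414931, + strand), the signaling receptor also known as ALK5, read 7.79, 7.63, 7.89 and 7.74 in the wild types against 7.58, 7.66, 7.66, 7.51 and 7.60 in the knockouts. All 5 knockouts were below the wild-type mean, and knockouts 1, 4 and 5 below every wild type. The difference was small, -0.16 (SE 0.13, 95% interval -0.44 to 0.12, limma adjusted p = 0.474), 0.894-fold with an interval of 0.737 to 1.09. Exact permutation gave p = 0.0317 for Tgfbr1, unadjusted. Its own spread within genotypes was 0.085, against a median of 0.240 for the 2293 genes within 0.5 of its level, and limma draws the spread of each gene towards that of genes at its level. Tgfbr2 exceeded Tgfbr1 in 9 of 9 libraries, by 0.74 ± 0.17 (SD, n = 4) among wild types and 0.59 ± 0.23 (SD, n = 5) among knockouts.

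Smad2 and Smad3, which carry the signal to the nucleus, lay close together. Smad2 (on chromosome 18) read 7.88, 7.94, 7.78 and 7.99 in the wild types against 7.89, 7.69, 7.78, 7.55 and 7.94 in the knockouts. Knockouts 2, 3 and 4 lay below every wild type, knockout 3 only just. The difference was -0.13 (SE 0.14, limma adjusted p = 0.587), with an interval of 0.750- to 1.11-fold. Smad3 (chromosome 9, 63646767 to 63757994, - strand) read 7.85, 7.98, 7.62 and 7.89 in the wild types against 7.52, 7.91, 7.87, 7.64 and 7.72 in the knockouts. The Smad3 difference was -0.11 (SE 0.14, limma adjusted p = 0.678), with an interval of 0.755- to 1.14-fold. Knockout 1 lay below every wild type, and the other 4 knockouts within the wild-type range. Smad2 minus Smad3 was 0.06 ± 0.09 (SD, n = 4) among wild types and 0.04 ± 0.25 (SD, n = 5) among knockouts.

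Smad7 (on chromosome 18), the inhibitory Smad that TGF-β itself induces, read 7.56, 7.42, 7.92 and 7.65 in the wild types against 7.70, 7.51, 7.62, 7.55 and 7.76 in the knockouts. All 5 knockouts lay within the wild-type range. The difference was -0.01 (SE 0.15, limma adjusted p = 0.970), with an interval of 0.802- to 1.23-fold, which does not show that the genotypes are alike. For Smad7 the sign of the difference turned with the scaling, to 0.05 with scaling to the library total.

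Ctgf (chromosome 10, 24595442 to 24598683, + strand), a secreted matrix-associated protein induced by TGF-β and by the YAP and TEAD factors, was the most abundant member. Wild types were at 10.73, 11.73, 11.34 and 11.84 and knockouts at 11.27, 11.68, 11.17, 11.96 and 10.88. Wild type 1 and knockout 5 were lowest, and knockout 4 highest. The difference was -0.01 (SE 0.21, limma adjusted p = 0.975), with an interval of 0.727- to 1.35-fold, and it too turned sign with the scaling, to 0.10 after quantile normalization. In adjusted reads Ctgf had 2833 ± 886 (SD, n = 4) and 2787 ± 839 (SD, n = 5).

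Ctgf varied between libraries of one genotype far more than genes of like level. Its spread within genotypes was 0.461 on the log2 scale, against a median of 0.159 for the 661 genes within 0.5 of its level. In Smad7 the spread was 0.160 against 0.243, and in Tgfb3 0.755 against 0.695. The low Ctgf libraries were wild type 1 and knockout 5, and the low Tgfb3 libraries were wild types 1 and 4. Ctgf minus Tgfb2 was 6.26 ± 0.51 (SD, n = 4) among wild types and 5.73 ± 0.24 (SD, n = 5) among knockouts.

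**Figure D2:**
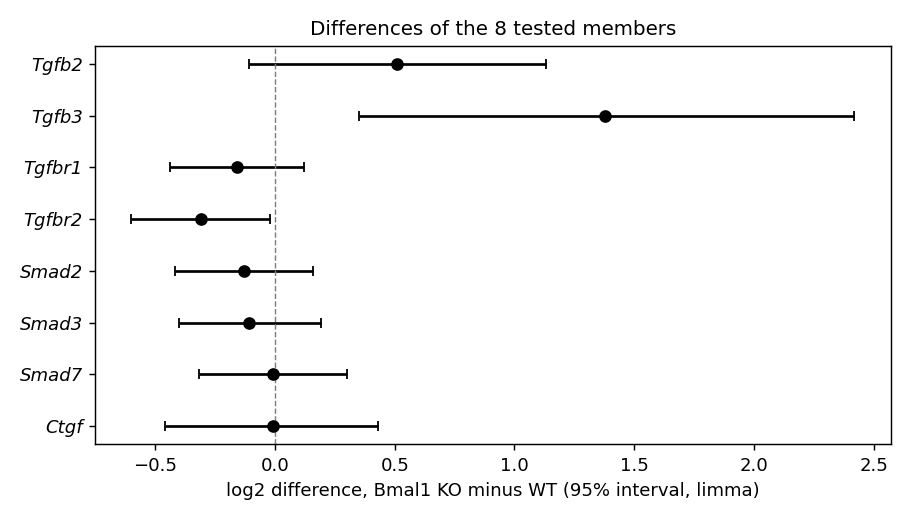
Log2 difference, knockout minus wild type, of the 8 tested members with 95% intervals from limma (4 against 5 libraries); the dashed line marks no difference. Intervals of Tgfb3 (0.35 to 2.42) and Tgfbr2 (-0.60 to -0.02) lie off 0 before adjustment over all genes, and the other 6 span it.

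**Figure D3:**
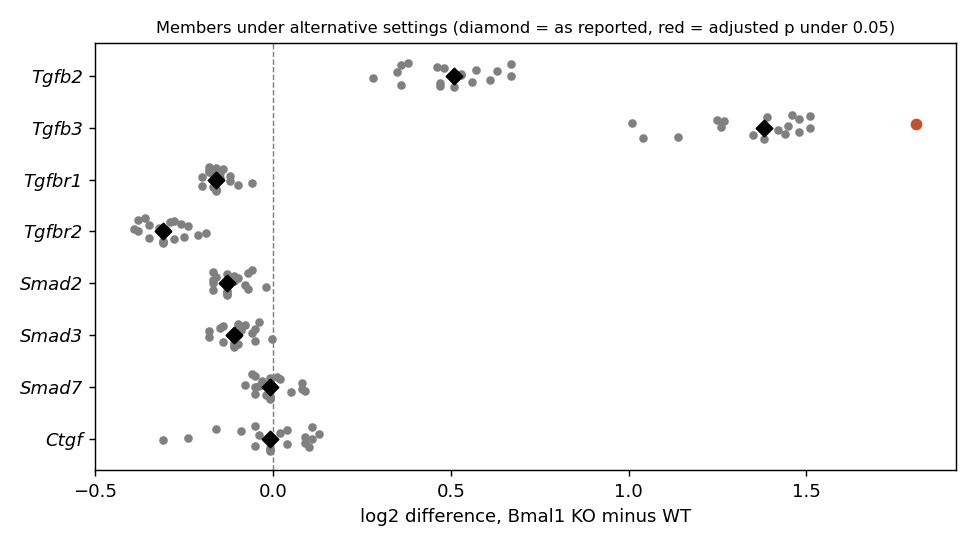
Log2 difference, knockout minus wild type, of the 8 tested members under each alternative setting (grey points), with the reported value as a black diamond and settings with a limma adjusted p under 0.05 in red. The one red point is Tgfb3 without wild type 3 (1.81), and only the points of Smad7 and Ctgf lie on both sides of 0.

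Marker genes of kidney cell types also differed between genotypes. Proximal tubule markers were lower for 7 of 16 (8.2% of all tested genes were) and higher for none, with summed adjusted reads of 666302 to 866455 in wild type and 485185 to 511191 in knockout. Most of that sum was Kap, which did not pass itself (limma adjusted p = 0.0604). Without Kap the sum was 171289 to 205114 in wild type and 128180 to 157421 in knockout. Against 6.16% of all tested genes, 9 of 14 markers of the thick limb, distal tubule and collecting duct were higher, but 4 without wild type 1 and 3 with no variance trend. Of 8 urothelium markers 6 were higher, and 3 with a minimum of x = 50. Of those 6, Krt15 reached x = 10 in no wild type and Upk1b in 1, so that they were tested through the knockouts. Podocyte markers were higher for 2 of 16, and for 1 without any one of wild types 1 and 4 and knockouts 2 to 5. Of 8 platelet and blood markers 1 was higher, with 7 at an unadjusted p under 0.05 and a median of 0.81. That count was 7 without wild type 2, 3 without knockout 1, 2 without knockout 3, and 0 without wild type 3 or knockout 4. Of 14 macrophage and dendritic markers 1 was lower and none higher, and 1 was higher without wild type 2. None of these lists had a marker at 0 in all libraries. Their part in the values of the members was not tested.

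Steps before the receptor were read from 18 genes that store, bind or release latent TGF-β. Of 17 tested, 2 rose and 1 fell (limma, adjusted over all genes; 17.6% against 14.4% of all tested genes), with a median of 0.05. Thbs1, thrombospondin 1, which can release active TGF-β from its latent form, rose by 0.86 (SE 0.22, adjusted p = 0.0114), from wild types at 6.05, 6.64, 7.14 and 6.62 to knockouts at 7.10, 7.51, 7.53, 7.94 and 7.30. Knockout 1 lay just below the highest wild type, and with Rn45s as a covariate Thbs1 no longer passed (0.67, adjusted p = 0.0662). Dcn, the TGF-β-binding proteoglycan decorin and a fibroblast marker, rose by 0.66 (SE 0.14, adjusted p = 0.00378). Ltbp4, a latent TGF-β binding protein, fell by 0.58 (SE 0.17, adjusted p = 0.0250), with all 5 knockouts (6.74 to 7.21) below all wild types (7.33 to 7.68). The Ltbp4 adjusted p rose to between 0.0502 and 0.0864 on leaving out any of wild types 3 and 4 and knockouts 1, 2 and 3. It was 0.0536 with scaling to the library total and 0.07 with the total less Rn45s, and Ltbp4 passed in 13 of 20 alternative settings. Itgb1, the most abundant of the list, had 0.19 (adjusted p = 0.237).

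Among 9 tested co-receptors and other receptors of the family, 1 rose and none fell, with a median of 0.22. That is 11.1%, against 14.4% of all tested genes called in either direction and 6.16% called higher. Eng, endoglin, a co-receptor of endothelial cells, had 0.44 (SE 0.12, limma adjusted p = 0.0248), with all 5 knockouts (9.52 to 10.03) above all wild types (9.19 to 9.48). Leaving out any of wild types 1, 3 and 4 and knockouts 3 and 4 put its adjusted p between 0.0562 and 0.0732. It was 0.158 with upper quartile scaling, 0.127 with Rn45s as a covariate and 0.078 with no variance trend, and Eng passed in 12 of 20 alternative settings. Exons of Eng overlap Fpgs on the other strand. Bmpr2, the BMP type 2 receptor and most abundant of the list, had -0.38 (adjusted p = 0.154), and passed without wild type 1 (-0.56, adjusted p = 0.0284).

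No gene of the 18 tested Smad regulators passed (limma, median -0.12), against 14.4% of all tested genes. At an unadjusted p under 0.05 it was 1 of 18, against 27.5% of all tested genes. Ppm1b, a phosphatase and the most abundant, had -0.11 (limma adjusted p = 0.498). Of the 5 other Smads 1 rose and none fell (20%, against 14.4% of all tested genes called and 6.16% called higher). Smad6, the inhibitor of the BMP branch, rose by 0.67 (SE 0.20, adjusted p = 0.0306), with all 5 knockouts (6.95 to 7.35) above all wild types (6.05 to 6.87). Smad5 had 0.08 (adjusted p = 0.697). Leaving out any of wild types 1 and 2 and knockouts 3, 4 and 5 ended the Smad6 call, at an adjusted p between 0.0514 and 0.106. So did leaving the filter out (0.0537), upper quartile scaling (0.0593), no variance trend (0.0536) and Rn45s as a covariate (0.0551), and Smad6 passed in 9 of 20 alternative settings.

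Among 26 tested genes that TGF-β is known to induce, 4 rose and none fell, with a median of 0.44. The share called was 15.4%, near the 14.4% of all tested genes called in either direction, of which 6.16% were called higher. Smaller still is what such a count says of the list, which was chosen with earlier results known. Smad7, a member of both sets, was not among the 4. Lox, lysyl oxidase, which cross-links collagen, rose by 2.80 (SE 0.22, limma adjusted p = 8.35e-08), from 4.24 to 4.61 in wild type to 6.87 to 7.62 in knockout. Cdkn1a, a cell-cycle inhibitor that is also under clock control, rose by 2.38 (SE 0.14, adjusted p = 2.33e-09), the collagen chain Col4a1 by 0.67 (SE 0.14, adjusted p = 0.00333) and vimentin Vim by 0.46 (SE 0.12, adjusted p = 0.0122, and 0.0846 with upper quartile scaling). Exons of Col4a1 overlap Col4a2 on the other strand, and those of Lox and Cdkn1a overlap noncoding transcripts. The count was 7 when libraries were scaled to the total less Rn45s, and also without wild type 2. The fibroblast, pericyte and smooth muscle marker list, which shares Vim, Dcn, Col1a1, Col1a2, Col3a1, Acta2 and Tagln with the lists above, had 5 of 18 higher (27.8%, against 6.16%). Its summed adjusted reads were 4541 to 4923 in wild type and 5474 to 8067 in knockout, and no marker was at 0 in all libraries. When libraries were scaled to the total less Rn45s, 11 of those markers were higher. The part of these cells in the result was not tested.

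Ctgf was also set beside other targets and factors of YAP and TEAD. Of 14 tested, 4 rose and none fell, with a median of 0.20. That is 28.6%, against 14.4% of all tested genes called in either direction and 6.16% called higher. Ankrd1 rose by 1.29 (SE 0.28, limma adjusted p = 0.00407), Amotl2 by 0.64 (SE 0.13, adjusted p = 0.00231), Nuak2 by 0.54 (SE 0.12, adjusted p = 0.00506) and Amotl1 by 0.55 (SE 0.16, adjusted p = 0.0254). Each of these 4 called genes had all 5 knockouts above all wild types, whereas Ctgf overlapped throughout. Amotl1 did so only just, with its lowest knockout at 9.77 and its highest wild type at 9.76. Of all tested genes, 14.3% had no overlap between genotypes. Leaving out any of wild types 1 and 4 and knockouts 2, 4 and 5 ended the Amotl1 call, at an adjusted p between 0.0512 and 0.0897. It was 0.104 with no variance trend and 0.131 with Rn45s as a covariate, and Amotl1 passed in 13 of 20 alternative settings. Crim1, the most abundant, had 0.26 (adjusted p = 0.262), and its exons overlap Fez2 on the other strand. Cyr61, a member of the same protein family as Ctgf and under the same factors, had 0.13 (SE 0.22, adjusted p = 0.767), with wild types at 8.24, 8.60, 7.31 and 7.57 and knockouts at 7.88, 8.57, 7.91, 8.09 and 7.82. Its direction turned without wild type 3 (-0.08). Wild type 1, lowest in Ctgf, was not low in Cyr61. Of the other 4 relatives, only Wisp1 was tested.

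**Figure D4:**
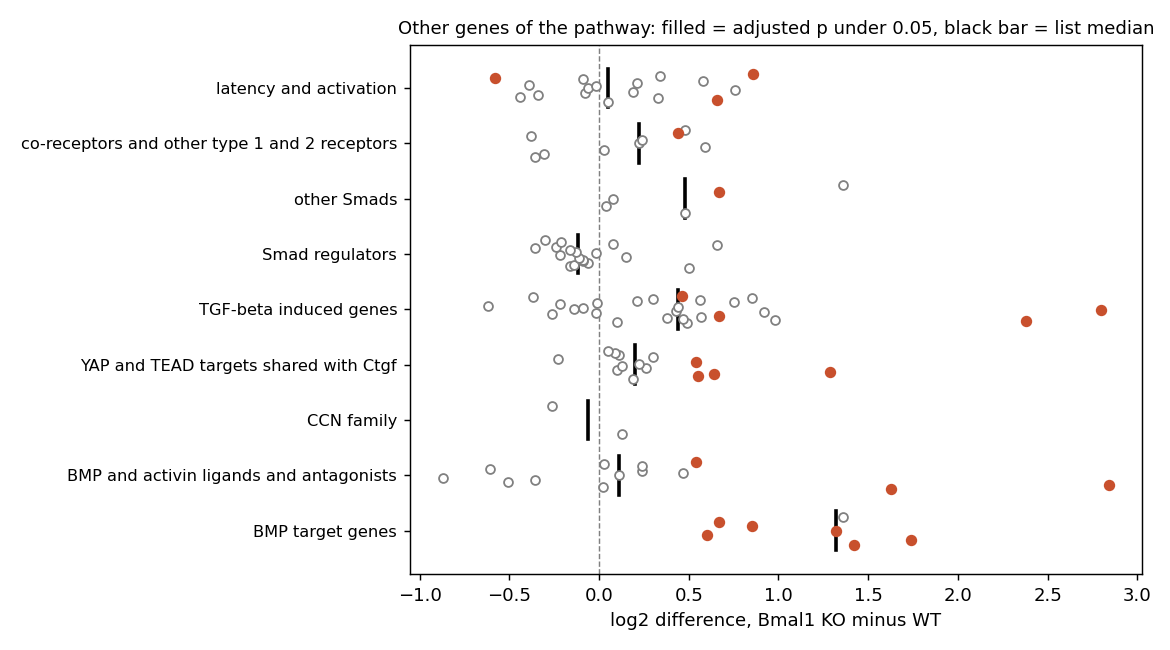
Log2 difference, knockout minus wild type, of each tested gene in the 9 lists set beside the members; filled points have a limma adjusted p under 0.05 and the black bar is the list median. BMP target genes have 6 of 7 filled points and a median of 1.32, whereas Smad regulators have none of 18. Of all tested genes, 14.4% had an adjusted p under 0.05.

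Most tested genes in a list of BMP targets were higher in knockout. Of 7 tested, 6 rose and none fell, with a median of 1.32. That is 85.7%, against 14.4% of all tested genes called in either direction and 6.16% called higher. The list was chosen with earlier results of these data known, so its share is a description and no test of the BMP branch. The Id genes encode inhibitors of basic helix-loop-helix transcription factors. Id1 read 7.66, 8.40, 7.54 and 7.30 in the wild types against 8.83, 9.65, 9.75, 9.10 and 10.01 in the knockouts, a rise of 1.74 (SE 0.23, limma adjusted p = 4.30e-05). Id3 rose by 1.32 (SE 0.18, adjusted p = 8.33e-05), Id4 by 0.85 (SE 0.19, adjusted p = 0.00512) and Id2, the most abundant, by 0.60 (SE 0.12, adjusted p = 0.00155). Every knockout was above every wild type in each of the 4 Id genes and in Smad6, and so it was in Atoh8, chosen after its value was seen (1.42, SE 0.32, adjusted p = 0.00567). The 4 Id genes and Atoh8 passed in all 20 alternative settings. Smad6 passed in only 9 of those 20, and the count of BMP targets called higher was 5 or 6 over the settings. Without wild type 2 and knockout 4 it was 5.

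Endothelial markers moved in the same direction as the Id genes, but not they alone. Markers of urothelium (6 of 8) and of thick limb, distal tubule and collecting duct (9 of 14) were also higher, with the limits given above. Of 17 endothelial markers tested, 7 were higher (41.2%, against 6.16% of all tested genes) and none lower. Their summed adjusted reads were 5580 to 8016 in wild type and 7541 to 13122 in knockout, and no marker was at 0 in all libraries. The endothelial count was 4 without wild type 1, without knockout 4 or with no variance trend. The part of any of these cell types in the BMP target result was not tested. Of 13 tested genes in a list of BMP and activin ligands and antagonists, 3 were called higher and none lower, with a median of 0.11. That is 23.1%, against 14.4% of all tested genes called in either direction and 6.16% called higher. One of the 3, Bmp3, reached x = 10 in no wild type and in all 5 knockouts, so it was tested only through the genotype in which it is high. Its values were 0.34, 0.13, 2.55 and 3.39 against 4.64, 3.48, 4.25, 4.53 and 5.33, and its count among the 3 is a description. Bmp1, in the list by its name but a protease that processes procollagen, rose by 1.63 (SE 0.35, limma adjusted p = 0.00437). Sostdc1, a BMP antagonist, rose by 0.54 (SE 0.13, adjusted p = 0.00823, and 0.0556 with no variance trend). Bmp4, the most abundant tested, had -0.51 (adjusted p = 0.111), and passed without knockout 1 (-0.66, adjusted p = 0.0269). Exons of Bmp4 overlap the coding gene Gm15217 on the other strand, and those of Id4 and Thbs1 overlap noncoding transcripts. Whether the 2 branches differ from each other was not tested.

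**Figure D5:**
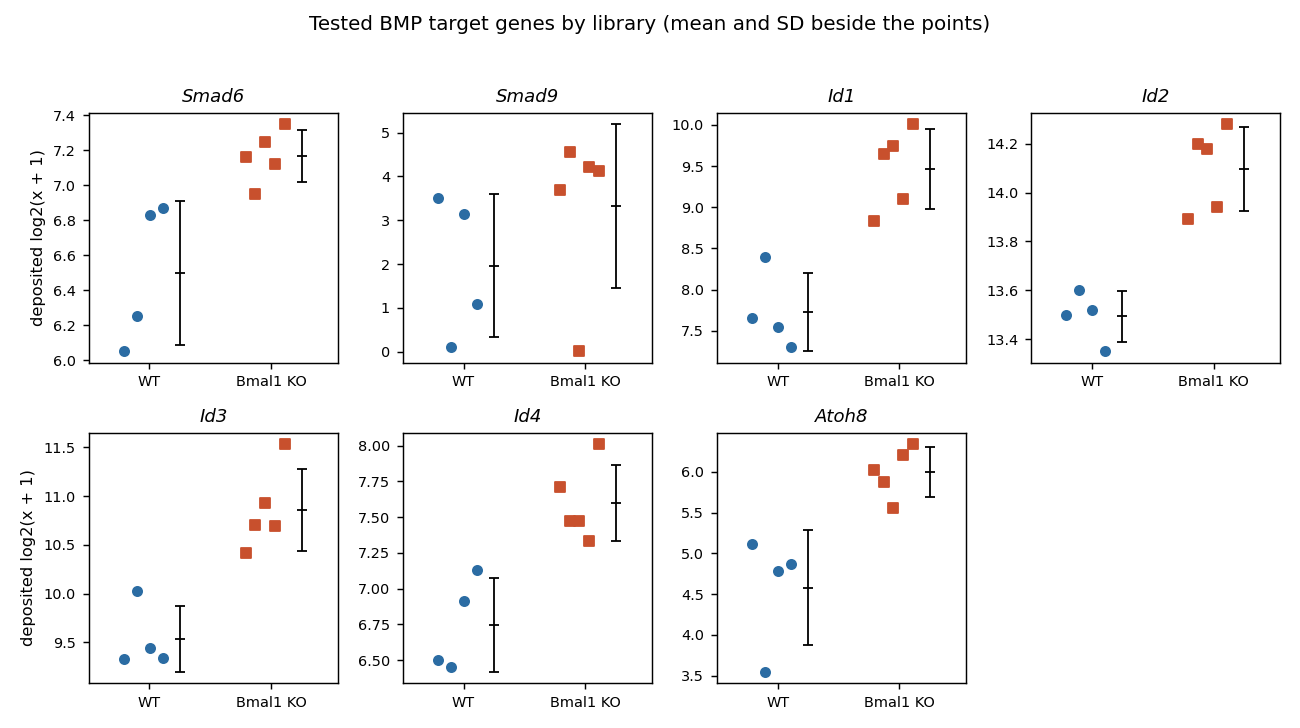
Deposited log2(x + 1) of the 7 tested BMP target genes in each library, wild type (WT, circles) and knockout (KO, squares), with mean and SD beside the points; each panel has its own axis range. All knockouts lie above all wild types in 6 of the 7 panels, Smad9 being the exception.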

How the data were processed

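Per the labels' protocols, kidney RNA was extracted with Trizol and made into QuantSeq libraries. Bowtie2, bedtools and build mm10 appear in the submitters' processing notes. For the annotation, strand setting and normalization tool, no source used here gives a name. The authors deposited 1 table per library of log2(x + 1) values for gene symbols. The planned count model needs counts, so these values were fitted as log2 values with limma 3.58.1 in R 4.3.3 (variance trend, genotype as the single term, two-sided, Benjamini-Hochberg over all tested genes, threshold 0.05). The filter (x of 10 or more in 4 or more libraries) kept 13481 genes. Differences are knockout minus wild type on the log2(x + 1) scale, which understates changes near the floor. Members, gene lists and tests were chosen with earlier results of these data known, so no set test was run. Of each list described, the text names every called gene, or the 4 with the smallest adjusted p where more were called, and the most abundant; for the member with the smallest p it names the 3 genes nearest in profile. Marker lists are given as counts and sums. Alternatives were other filters, pseudocounts, scalings and covariates, a replicate block over the numbers found in both genotypes, and leaving out libraries. Gene positions came from GENCODE M21 (GRCm38, the assembly of mm10). The fit was tested on simulated data.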

Additional observations from a re-analysis of the deposited data

Results flagged for a closer look

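In a screen of 82 groups (41 genes in each genotype), 3 single libraries stood apart from the rest of their group by Dixon's ratio; chance gives about 1 in 20 groups. Tgfb1 in knockout 2 was at 0.97, against 0.000 to 0.004 in the other knockouts, all near the floor. Wild type 2 was the highest wild type for Cdkn1a, at 7.75 against 7.284 to 7.336, and for Id3, at 10.03 against 9.333 to 9.442. Both of those values lay below every knockout.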

How the results depend on the processing

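Over 20 alternative settings, the number of genes passing ranged from 1312 (no variance trend) to 2264 (without wild type 2), against 1937, and none left the range of 1.5 times. No member passed in any setting except Tgfb3 without wild type 3 (1.81, limma adjusted p = 0.0245), so the member count was 0 to 1 on leaving out single libraries and 0 in all others. Tgfb2 and Tgfb3 fall below a minimum of x = 50 and have 19 settings. Tgfb2, Tgfb3, Tgfbr1, Tgfbr2, Smad2 and Smad3 kept their direction throughout, but some came close to 0. With scaling to the library total without Rn45s, Smad3 was at -1.6e-03, Smad2 at -0.02, Tgfbr1 at -0.06 and Tgfbr2 at -0.21. Under the same scaling Tgfb2 was at 0.61 and Tgfb3 at 1.48. The cause of these changes and of those below was not tested. Smad7 turned to 0.05 with scaling to the library total, 0.09 with that total without Rn45s, and 0.08 with Rn45s as a covariate, and ranged from -0.08 to 0.08 on leaving out single libraries. Ctgf turned to 0.10 with quantile normalization, 0.04 with scaling to the total and 0.09 without Rn45s in it. With Rn45s as a covariate Ctgf was at -0.31 (limma adjusted p = 0.336), and it ranged from -0.24 to 0.13 on leaving out single libraries. Scaling to the total without Rn45s moved the median of all genes to 0.105. The share of passing genes that were higher was 42.9% as deposited, and 36.3% to 64.7% over the scalings.

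Replicate numbers are shared between genotypes, except that knockout 5 has no wild type of its number. Same-numbered libraries correlated at 0.151, 0.0009, -0.007 and 0.0407 in their deviations from the group means. Wild types 1 and 4 correlated best with the knockout of their own number. Wild type 2 correlated best with knockout 3 (0.0885), and wild type 3 with knockout 1 (0.0628). These weak correlations cannot decide whether the numbers pair the libraries. The fit with a replicate block used only shared numbers, and so left out knockout 5. In that fit 1739 genes and 0 members passed, and Ctgf turned to 0.11, the value it also had without knockout 5 alone. Smad6 no longer passed under that block (0.62, limma adjusted p = 0.064). Nor did it pass without knockout 5 alone (0.62, limma adjusted p = 0.0703). Under the block 11 proximal tubule markers were lower instead of 7. The part of the block in these changes was not separated from that of the missing library. Smad5 ranged from -0.01 (without wild type 1) to 0.12 on leaving out single libraries, and Cyr61 turned to -0.06 with Rn45s as a covariate and to between -0.08 and 0.35 on leaving out single libraries. The raw depth is unknown, which limits what can be said of Tgfb1 and Tgfb3.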
